A study of Mus musculus with 6 samples.

Results

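The genes described here are 48 mouse genes of the TGF-beta and BMP signalling system: ligands, receptors, SMAD proteins, their inhibitors, secreted antagonists, latent TGF-beta binding proteins and target genes. They were chosen by gene name from a list drawn up with earlier results of these data known, and all 48 of 48 were found among the 26969 genes of the deposited table. Messenger RNA was sequenced in 6 libraries of chondrocytes, the matrix-forming cells of cartilage, from wild-type mice. Per its title and design text, the series set such cells beside cells transplanted with mitochondria of osteocytes. The labels form 2 groups of 3 libraries, and they disagree on which group is which. Where the description says mAC_Mito, the title and the treatment entry say vehicle; where it says mAC, they say mitochondria. All fields divide the libraries identically. Here a library bears the name in its description, which is also the name of its columns, and differences are taken as mAC_Mito minus mAC without reading them as an effect of the transplant. The age of the mice, the cartilage the cells came from, the dose and the time are not given in the labels. Whether replicates were separate cultures or animals is not stated either, and p-values therefore refer to the spread among these libraries, some of which may be technical.

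TGF-beta is secreted in a latent complex with its own propeptide, and latent TGF-beta binding proteins tether that complex to fibrillin in the extracellular matrix until integrins or other activators release the ligand. Released TGF-beta and activin signal through type II and type I receptor kinases to SMAD2 and SMAD3, BMPs signal to SMAD1, SMAD5 and SMAD9, and both branches share SMAD4. In cartilage, TGF-beta signalling is known for holding chondrocytes back from hypertrophy and BMP signalling for driving chondrocyte differentiation, with ID genes as direct targets of the BMP branch.

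Total counts ranged from 59116068 to 68378213 per library, and 21437 to 22107 genes had at least 1 count. The share of counts on genes of the mitochondrial genome was highest in mAC 1 at 7.38% and lay between 2.95% and 5.66% in the other 5 libraries. The cartilage collagen gene Col2a1 was at 951 to 1662 FPKM and Acan, the aggrecan gene, at 63.5 to 134 FPKM, so the labelled cell type had its defining markers in every library. FPKM, the fragments counted per length of gene model and per size of library, is the only scale on which levels of different genes are compared here. Markers of other cell types were also read. The 4 hypertrophic chondrocyte markers summed to 2008 to 2589 FPKM, led by Spp1 at 1945 to 2520 FPKM. The 7 fibroblast markers, led by Col1a1, summed to 505 to 625 FPKM in mAC and 511 to 893 FPKM in mAC_Mito. The 6 smooth muscle and pericyte markers summed to 538 to 623 FPKM, nearly all of it Acta2 at 525 to 609 FPKM. The extraction text in the labels speaks of adipose RNA, and the 6 adipocyte markers, led by Fabp4 at 28.1 to 53.8 FPKM, summed to 62.5 to 97.5 FPKM in mAC and 83.2 to 103 FPKM in mAC_Mito. The 8 macrophage and leukocyte markers summed to 61.8 to 79.4 FPKM in mAC and 68.5 to 112 FPKM in mAC_Mito. Most of each sum was Lyz2 at 49.0 to 96.4 FPKM, followed by Cd68 at 5.77 to 9.59 FPKM. None of the other markers in this list exceeded 2.83 FPKM, the highest value of Cd14. Ptprc and Itgam reached no more than 0.0915 and 0.423 FPKM. The 7 osteoblast and osteocyte markers found, led by Ibsp at 6.55 to 9.23 FPKM, summed to 17.4 to 19.5 FPKM, with the osteocyte genes Sost and Dmp1 at no more than 0.0489 and 0.104 FPKM. The 8 skeletal muscle markers summed to 27.1 to 40.4 FPKM, and all 8 endothelial genes stayed under 0.2 FPKM. The RNA is from bulk cells, so fewer cells of a type and less RNA per cell cannot be told apart in any value that follows.

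The levels of the 48 genes spanned a wide range. Id3, a BMP target that blocks DNA binding of basic helix-loop-helix factors, stood highest with a mean of 101 FPKM over the 6 libraries, followed by Id1 at 76.0 FPKM and the secreted BMP antagonist Grem1 (gremlin) at 63.5 FPKM. Ltbp2, Tgfbi, Tgfbr2 and Tgfb3 came next, with means of 49.8, 41.9, 35.8 and 30.4 FPKM. In all, 19 genes had a mean of at least 10 FPKM, 26 lay between 1 and 10 FPKM, and 3 were under 1 FPKM, namely Bmp6, Chrd and Acvr2b. Most neighbours in this order cannot be ranked: of 47 neighbouring pairs, 44 had ranges over the 6 libraries that overlapped. The 3 pairs that lay apart were Bmp5 above Smad6, Smurf1 above Gdf10, and Chrd above Acvr2b.

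**Figure D1:**
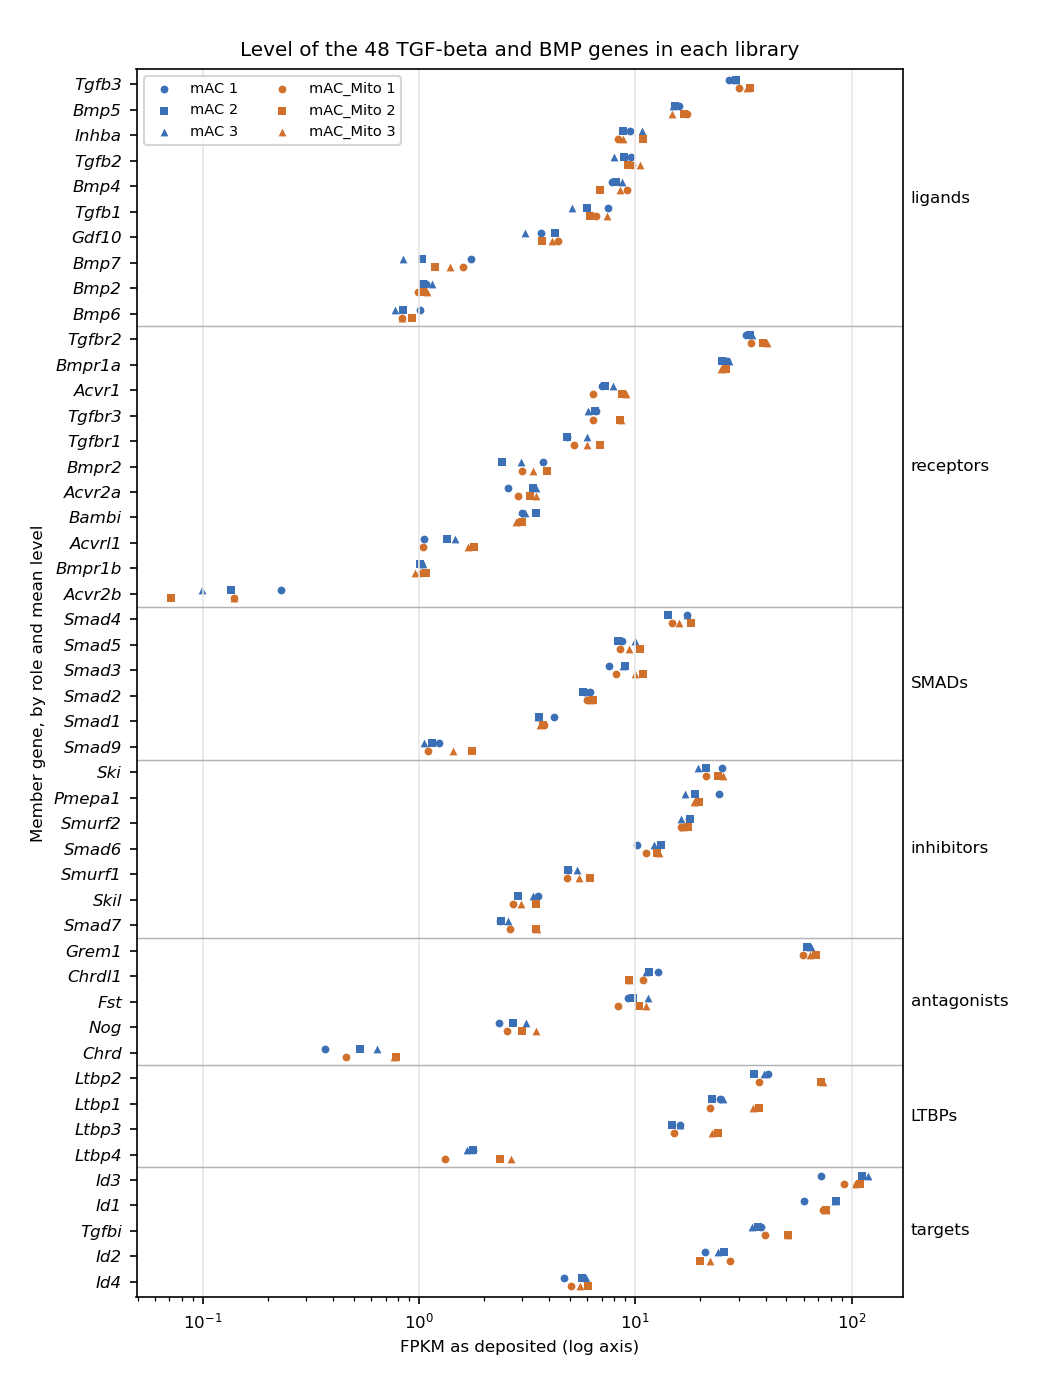
FPKM of each of the 48 genes on a log axis, with 1 point per library (blue mAC, orange mAC_Mito; circle, square and triangle for replicates 1, 2 and 3), ordered by role and mean level. Most genes show interleaved groups, while the points of mAC_Mito 2 and 3 stand to the right for the latent TGF-beta binding proteins, as for Ltbp2 at 71.8 and 74.1 FPKM against 41.0 FPKM in mAC 1.

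Between the groups, none of the 48 genes passed the threshold. With edgeR's quasi-likelihood test on the counts and Benjamini-Hochberg adjustment over all 17645 genes tested, all 48 were tested and 0 were called at an adjusted p under 0.05, each with an adjusted p of 0.99992. Among all genes tested 2 were called, a share of 0.0113%. DESeq2 and limma also called 0 of the 48. Before adjustment, 4 genes had p under 0.05 and were higher in mAC_Mito (Smad7, Ltbp2, Tgfbi and Ltbp3), which is 8.33% of the list beside 2.1% of all genes tested. On the same measure 1 gene was lower (Chrdl1, 2.08% beside 1.09%). This count depended on which libraries were kept: with all 6 libraries it was 5 in both directions together, and it came to 0 when mAC 2, mAC_Mito 2 or mAC_Mito 3 was left out. It came to 3 on leaving out mAC 3, to 9 on leaving out mAC 1 and to 11 on leaving out mAC_Mito 1. The share of all genes tested moved in the same way, from 3.19% with all 6 libraries. That share was 2.2%, 2.3% and 1.5% without mAC 2, mAC_Mito 2 and mAC_Mito 3. Without mAC 3, mAC 1 and mAC_Mito 1 the share was 4.3%, 4.9% and 6.7%.

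Counted by library on CPM (counts relative to library size, TMM-scaled), 4 genes had every mAC_Mito library above every mAC library (Tgfb3, Tgfbr2, Smad7 and Tgfbi), 8.33% of the list beside 3.93% of all genes tested. None of the 48 had every mAC_Mito library below every mAC library, beside 4.38% of all genes tested. The first of these counts was 14 without mAC 1 and 16 without mAC_Mito 1, when fewer libraries have to lie apart. The matching shares of all genes tested were not computed for these settings, so these counts cannot be read as a trait of the 48 genes. In log2 fold change 29 genes were above 0 and 19 below, with a median of 0.06 beside 0.0016 for all genes tested. The 95% intervals of 43 genes included 0 and those of 34 lay wholly within 0.5 of 0 on the log2 scale, so for these 34 a larger difference lay outside the interval. The median range over the 6 libraries was 0.44 in log2 CPM for the 48, beside 0.55 for all genes tested. These 2 medians were not matched for expression level. The widest range of the 48, at 1.72, was that of Acvr2b, which had 20 to 66 counts.

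**Figure D2:**
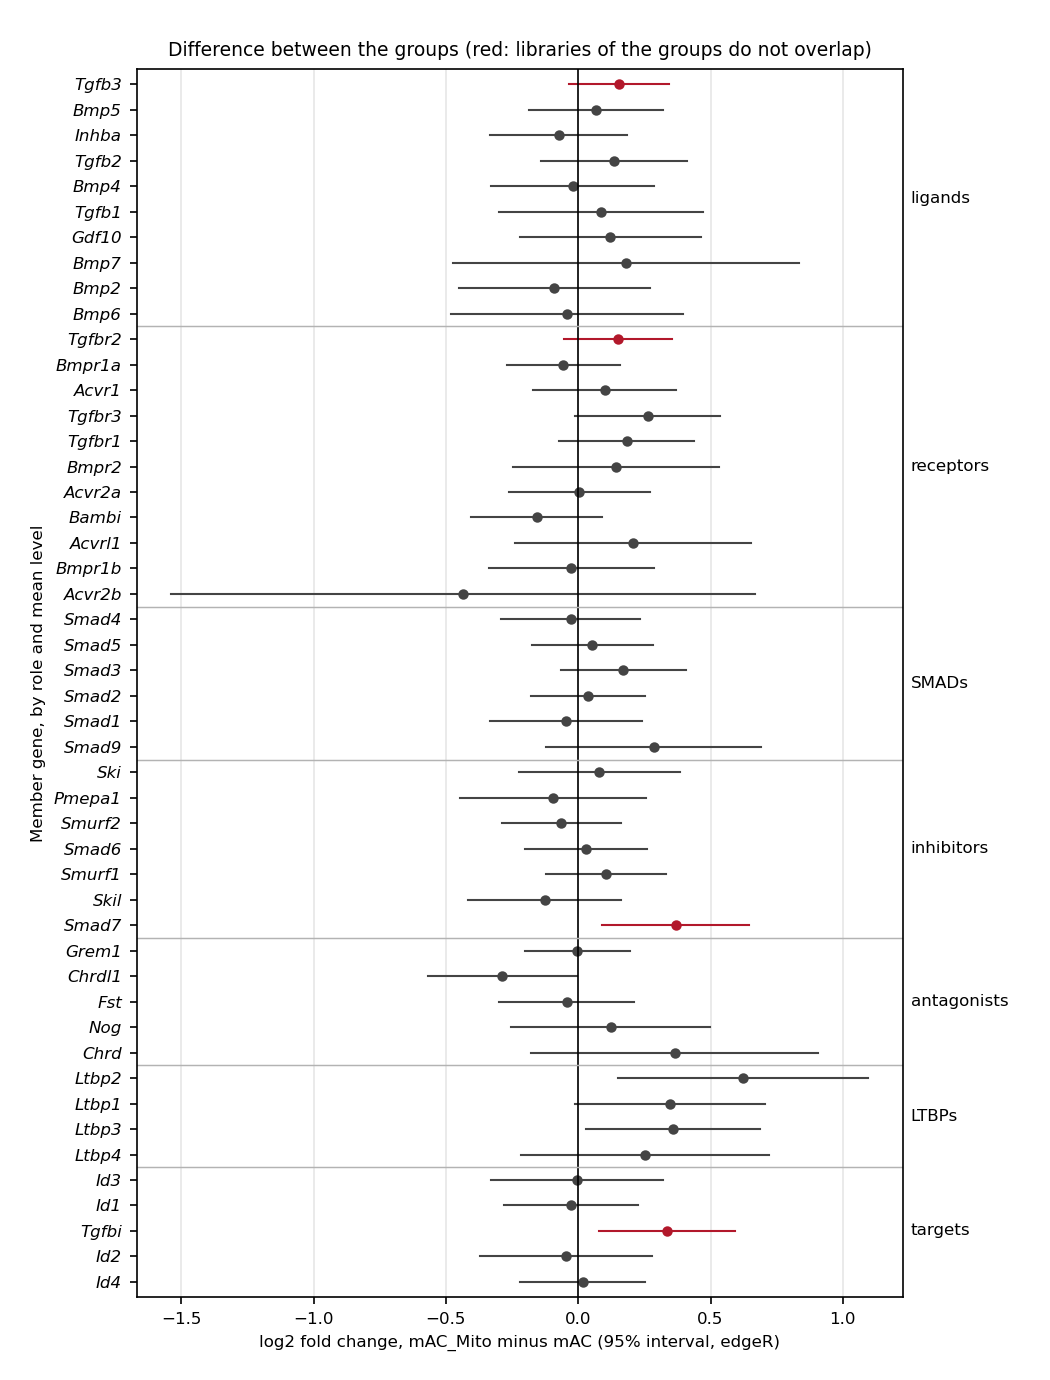
Log2 fold change (mAC_Mito minus mAC) of each of the 48 genes with its 95% interval from the edgeR fit, ordered by role; red marks genes whose groups do not overlap on TMM-scaled CPM. The intervals of 43 genes cross 0, and Ltbp2 has the highest point at 0.62.

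Among the ligands, 6 of 10 were above 0 and 4 below, with a median log2 fold change of 0.08, and none had an unadjusted p under 0.05. Tgfb3, 1 of the 3 TGF-beta isoforms, was the most abundant ligand. Its FPKM were 27.3, 29.2 and 29.1 in mAC and 30.1, 33.8 and 32.8 in mAC_Mito, given here and below for replicates 1, 2 and 3 in that order. Every mAC_Mito library lay above every mAC library, with the nearest 2 values less than 1 FPKM apart. The log2 fold change was 0.15 (SE 0.084, 95% interval -0.034 to 0.34). Tgfb3 (chr12:86056745-86079041 on GRCm38) made up 61.5% to 69.0% of the summed FPKM of the 3 isoforms. Tgfb2 was at 7.96 to 10.5 FPKM and Tgfb1 at 5.12 to 7.51 FPKM, and for both the groups overlapped.

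Bmp5 was the leading BMP. Its FPKM were 15.9, 15.2 and 15.01 in mAC and 17.4, 16.9 and 14.8 in mAC_Mito, with the groups overlapping and a log2 fold change of 0.068 (SE 0.11, 95% interval -0.18 to 0.32). It contributed 55.6% to 62.7% of the summed FPKM of Bmp2, Bmp4, Bmp5, Bmp6 and Bmp7, a sum that moved little, from 26.3 to 29.9. Bmp7 spread the most of the ligands. Its FPKM were 1.73, 1.03 and 0.839 in mAC and 1.60, 1.19 and 1.39 in mAC_Mito, so mAC 1 and mAC_Mito 1 were the 2 highest libraries and mAC 3 the lowest. The log2 fold change of Bmp7 was 0.18 (SE 0.29, 95% interval -0.47 to 0.84), an interval that includes a difference of either sign. Bmp4 was at 6.88 to 9.11 FPKM and Bmp2 at 0.985 to 1.14 FPKM. Inhba, which encodes the subunit of activin A, was at 8.28 to 10.9 FPKM, and Gdf10, also called BMP3B, at 3.10 to 4.37 FPKM. Bmp6 read 0.775 to 1.01 FPKM, but its exons overlap Txndc5 on the opposite strand, which had 36769 to 48235 counts against 216 to 278 for Bmp6, and no source used here says whether counting used strand, so its value is uncertain.

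**Figure D3:**
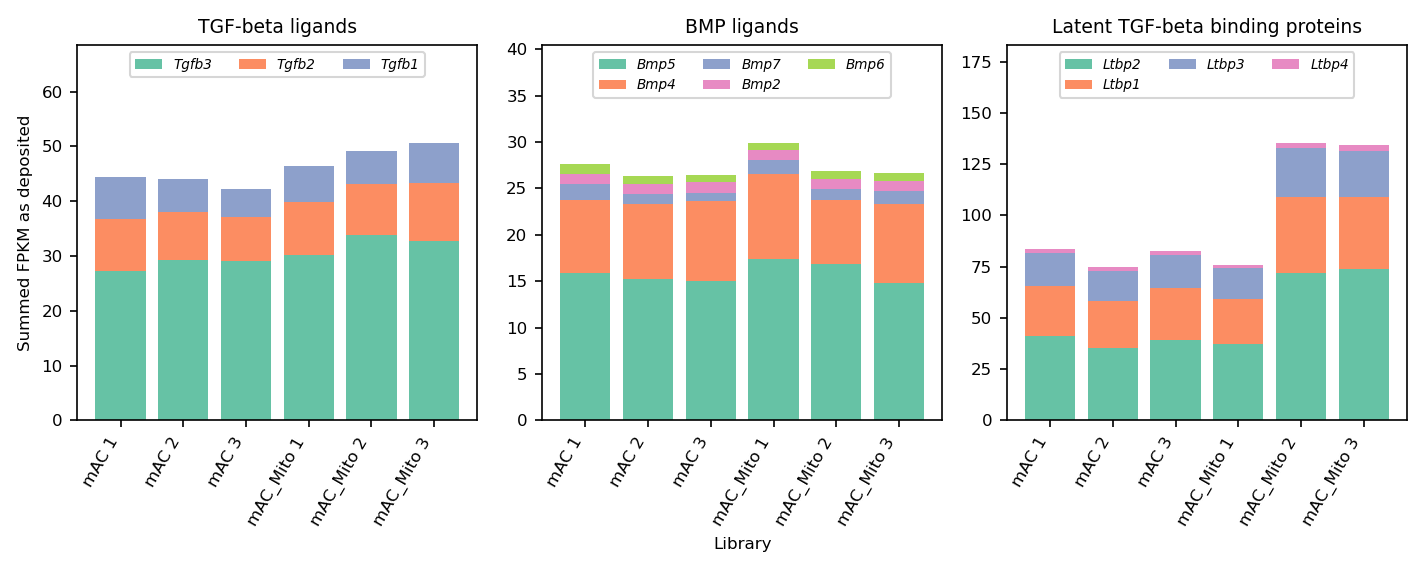
Stacked bars of summed FPKM per library for the TGF-beta isoforms, 5 BMPs and the latent TGF-beta binding proteins. Tgfb3, Bmp5 and Ltbp2 are the largest component of their stacks in every library (Ltbp2 47.5% to 55.1%), and the right-hand sum is 136 and 134 in mAC_Mito 2 and 3 against 74.8 to 83.5 in the other 4.

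The latent TGF-beta binding proteins varied across the libraries in a shared way. All 4 were above 0 in log2 fold change, with a median of 0.35, and for all 4 mAC_Mito 2 and mAC_Mito 3 were the 2 highest libraries while mAC_Mito 1 lay within or below the mAC values. Ltbp2 (chr12:84783212-84876532, minus strand), a large matrix protein that binds fibrillin but not latent TGF-beta itself, had FPKM of 41.0, 35.5 and 39.3 in mAC and 37.2, 71.8 and 74.1 in mAC_Mito. The means were 38.6 ± 2.82 in mAC and 61.0 ± 20.7 in mAC_Mito (SD, n = 3). Its groups overlapped because mAC_Mito 1 lay below mAC 1 and mAC 3. The log2 fold change of 0.62 (SE 0.21, 95% interval 0.15 to 1.10) was the largest of the 48 genes and the adjusted p of edgeR's quasi-likelihood test was 0.99992. Leaving out 1 library at a time moved it between 0.47 (without mAC_Mito 3) and 0.85 (without mAC_Mito 1).

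Ltbp1 (chr17:75005568-75392512, plus strand), which tethers latent TGF-beta to the matrix, had FPKM of 24.6, 22.7 and 25.4 in mAC and 22.1, 37.2 and 35.1 in mAC_Mito. In log2 fold change the gene stood at 0.35 (SE 0.16, 95% interval -0.013 to 0.71). Here mAC_Mito 1 was the lowest of the 6 libraries. Ltbp3 (chr19:5740904-5758532, plus strand), which also carries latent TGF-beta and is known for its part in skeletal growth, had FPKM of 16.1, 14.9 and 16.1 in mAC and 15.1, 24.1 and 22.5 in mAC_Mito, with the groups overlapping through mAC_Mito 1. Its log2 fold change was 0.36 (SE 0.15, 95% interval 0.030 to 0.69). Part of the Ltbp3 value is uncertain, because the use of strand in counting is not known. Ltbp4 (chr7:27305136-27337692, minus strand), the least abundant of the family and known for elastic fibre assembly, had FPKM of 1.77, 1.77 and 1.66 in mAC and 1.33, 2.37 and 2.65 in mAC_Mito. The libraries mAC_Mito 1 and mAC_Mito 3 were its lowest and its highest value, both outside the mAC range. The log2 fold change was 0.25 (SE 0.21, 95% interval -0.22 to 0.72), and it was 0.064 without mAC_Mito 3 and 0.47 without mAC_Mito 1.

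The same order of libraries was seen in some other genes of the matrix and not in others. Of the 10 genes of at least 1 FPKM in the list for latency, storage and activation of TGF-beta, 5 (Fbn1, Fbn2, Thbs1, Itgav and Emilin1) were above their mean over the 6 libraries in mAC_Mito 2 and 3 and below it in mAC_Mito 1. For 2, the proteoglycan genes Dcn and Aspn, it was the reverse, and 3 (Lrrc32, Furin and Bgn) did neither. Of the genes in this paragraph, Fbn1, Dcn and Lrp1 were singled out after their values were seen. Fbn1, which encodes fibrillin-1, the fibre that holds these binding proteins, had FPKM of 17.7, 13.1 and 18.4 in mAC and 13.1, 28.8 and 24.6 in mAC_Mito. Lrp1, an endocytic receptor that also binds TGF-beta, had FPKM of 16.9, 13.2 and 18.6 in mAC and 14.6, 36.8 and 31.7 in mAC_Mito. In both genes the pair mAC_Mito 2 and 3 lay above the other 4 libraries. Dcn (decorin), which binds TGF-beta, had FPKM of 111, 112 and 93.0 in mAC and 122, 89.0 and 98.0 in mAC_Mito, highest in mAC_Mito 1 and lowest in mAC_Mito 2. Col2a1 was at 1662 and 1559 FPKM in those 2 libraries and at 951 to 1226 FPKM in the other 4. The summed FPKM of the 7 fibroblast markers reached 893 in mAC_Mito, with a lowest value of 511 there and 505 to 625 in mAC; Col1a1 made up most of that sum. Long genes also varied between libraries: for the 1436 genes with the longest models (10678 bases or more), the median deviation from the mean of the 6 libraries was 0.13 in log2 CPM in mAC_Mito 2, 0.055 in mAC 1 and 0.032 in mAC_Mito 3, against -0.10 in mAC 2, -0.050 in mAC 3 and -0.070 in mAC_Mito 1. Of the 4 binding proteins only Ltbp1, at 12266 bases, belongs to that group. The models of Ltbp2, Ltbp3 and Ltbp4 have 9389, 10409 and 7440 bases. Genes of such lengths had the same sign in each library, with smaller medians. For the 1435 genes of 8005 to 10678 bases, the medians were 0.064 in mAC_Mito 2, 0.0098 in mAC_Mito 3 and -0.040 in mAC_Mito 1. For the 1436 genes of 6381 to 8005 bases, they were 0.034, 0.011 and -0.020. The part of length in the values of the binding proteins was not tested. With the trend over gene length removed, the log2 fold changes were 0.29 for Ltbp1, 0.58 for Ltbp2, 0.31 for Ltbp3 and 0.23 for Ltbp4.

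**Figure D4:**
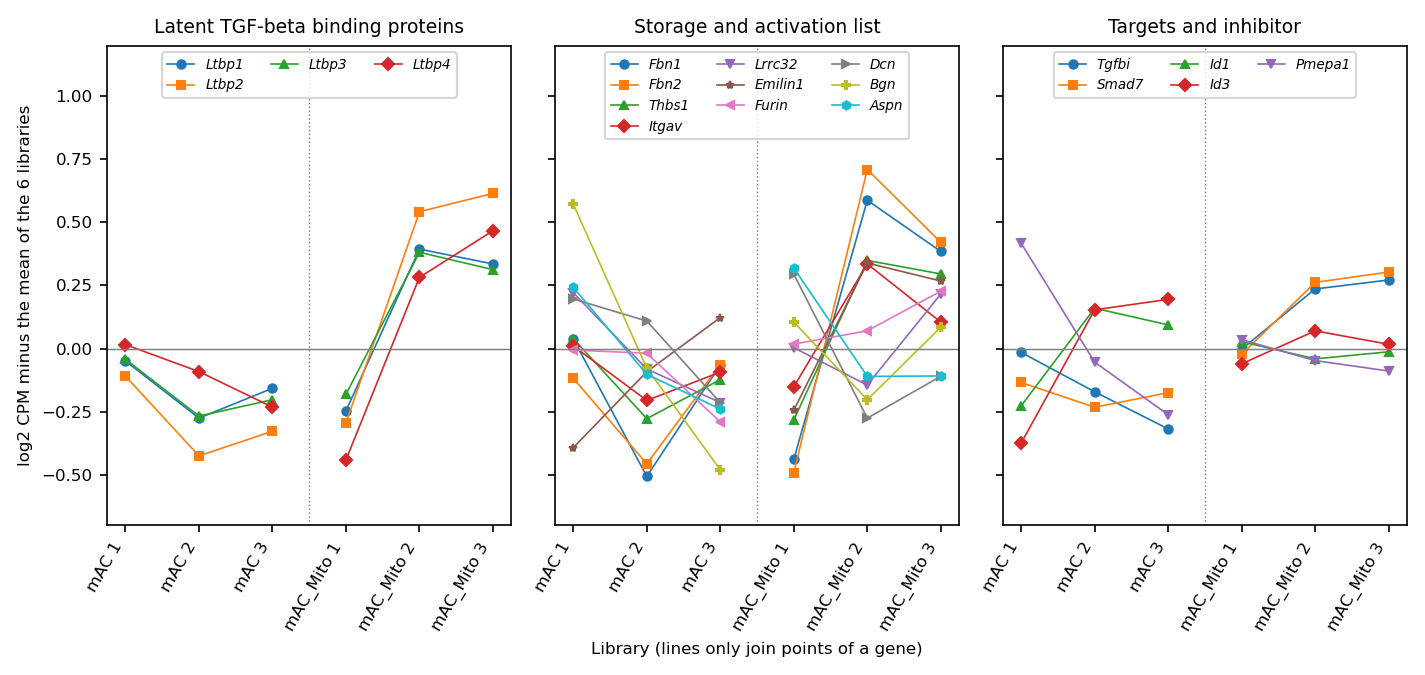
Deviation of log2 CPM from the mean of the 6 libraries (y axis) in each library (x axis) for the latent TGF-beta binding proteins (left), the 10 genes of at least 1 FPKM in the storage and activation list (middle) and targets with inhibitors (right); lines only join the points of a gene. In the left panel mAC_Mito 2 and 3 lie above 0 and mAC_Mito 1 below 0 for all 4 genes, in the middle panel for 5 of 10 with 2 reversed, and in the right panel mAC 1 is the lowest library for Id1 and Id3 and the highest for Pmepa1.

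Because these 4 genes differed between libraries together, the stretch before their starts is shown. The RefSeq promoter table for GRCm38.p6 had an entry for 33 of the 48 genes, 41 windows in all, and the 250 bases before each start were searched on both strands for the SMAD box CAGAC (read as GTCTG on the other strand), for GGCGCC, a GC-rich element bound by SMADs, and for the AP-1 element TGANTCA. Bases inside annotated exons of coding genes are left out of the sequences below, which run 5′ to 3′ in the direction of the gene with the SMAD box and the GC-rich element in capitals. The most upstream start is shown for Ltbp1 and Ltbp4, which have several.
Ltbp1, chr17:75005279-75005528, + strand: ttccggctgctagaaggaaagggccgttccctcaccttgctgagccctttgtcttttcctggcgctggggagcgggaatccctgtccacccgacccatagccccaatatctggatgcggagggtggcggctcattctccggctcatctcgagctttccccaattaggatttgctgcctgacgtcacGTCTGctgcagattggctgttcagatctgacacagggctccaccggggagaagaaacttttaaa
Ltbp2, chr12:84876533-84876741, - strand: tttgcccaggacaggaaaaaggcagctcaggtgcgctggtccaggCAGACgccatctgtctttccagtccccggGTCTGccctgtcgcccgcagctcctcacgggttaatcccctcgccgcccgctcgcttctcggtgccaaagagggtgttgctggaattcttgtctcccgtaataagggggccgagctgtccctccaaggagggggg
Ltbp3, chr19:5740650-5740899, + strand: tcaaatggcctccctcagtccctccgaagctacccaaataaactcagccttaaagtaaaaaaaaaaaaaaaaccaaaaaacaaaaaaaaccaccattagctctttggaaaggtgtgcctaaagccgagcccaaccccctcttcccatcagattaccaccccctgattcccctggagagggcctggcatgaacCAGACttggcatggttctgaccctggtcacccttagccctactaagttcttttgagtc
Ltbp4, chr7:27337693-27337862, - strand: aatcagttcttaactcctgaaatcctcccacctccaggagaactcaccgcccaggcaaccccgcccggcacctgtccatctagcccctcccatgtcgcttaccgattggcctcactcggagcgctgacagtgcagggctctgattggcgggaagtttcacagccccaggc
The letters CAGAC occurred once in the Ltbp1 and Ltbp3 stretches and 2 times in that of Ltbp2, while these letters are not in the Ltbp4 stretch; a more downstream Ltbp4 window held GGCGCC. The SMAD box is a common string: it was in 42.2% of all 32851 windows and in 48.8% of the 41 windows of these genes. The GC-rich element was in 9.59% of all windows and in 34.1% of the 41. The windows also differed in base composition, with a median GC content of 66.4% for the 41 and 52.4% for all. TGANTCA was in 6.75% of all windows and in 0 of the 41. A match is a description of the letters and not a shown binding site.

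Among the receptors and co-receptors, 7 of 11 were above 0 and 4 below, with a median log2 fold change of 0.10 and no unadjusted p under 0.05. Tgfbr2 (chr9:116084293-116175360), the type II receptor that binds TGF-beta, was the most abundant. Its FPKM were 32.6, 33.9 and 34.5 in mAC and 34.2, 38.8 and 40.7 in mAC_Mito. On FPKM mAC_Mito 1 lay just below mAC 3, whereas on TMM-scaled CPM the groups did not overlap. On the log2 scale the difference was 0.15 (SE 0.091, 95% interval -0.054 to 0.35). Tgfbr2 stood at 5.67 to 7.01 times the FPKM of its partner Tgfbr1, the type I receptor, which was at 4.84 to 6.85 FPKM. Tgfbr3 (betaglycan), the co-receptor that presents TGF-beta2, was at 6.04 to 8.57 FPKM, with 8.51 and 8.57 FPKM in mAC_Mito 2 and 3 above the other 4 libraries.

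On the BMP side, the type I receptor Bmpr1a (chr14:34410734-34502687) led. Its FPKM were 26.6, 25.0 and 27.1 in mAC and 25.8, 26.2 and 24.8 in mAC_Mito, a narrow band in which the groups interleaved, with a log2 fold change of -0.056 (SE 0.10, 95% interval -0.27 to 0.16). It was 24.2 to 26.1 times as high as Bmpr1b (0.961 to 1.08 FPKM), the type I receptor known for early cartilage condensation, and 6.69 to 10.4 times as high as the type II receptor Bmpr2 (2.41 to 3.92 FPKM). Acvr1, another type I receptor for BMPs, was at 6.40 to 9.03 FPKM. Of the activin type II receptors, Acvr2a was at 2.59 to 3.49 FPKM and Acvr2b at 0.0716 to 0.231 FPKM, or 20 to 66 counts, the lowest member of the set. Acvr2a shares exon positions with Orc4 on the opposite strand, which had 2333 to 3016 counts against 1040 to 1514, so its value is uncertain. Acvrl1, a type I receptor best known from endothelium, was at 1.05 to 1.80 FPKM while the 8 endothelial markers summed to 0.278 to 0.471 FPKM. Bambi, a decoy receptor without a kinase, was at 2.81 to 3.49 FPKM with a log2 fold change of -0.16.

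Of the receptor-regulated SMADs and Smad4, 4 of 6 were above 0, with a median log2 fold change of 0.045, and none had an unadjusted p under 0.05. Smad4, the partner common to both branches, had FPKM of 17.3, 14.2 and 17.3 in mAC and 14.8, 18.0 and 15.9 in mAC_Mito. The highest and the lowest library were mAC_Mito 2 and mAC 2, and the log2 fold change was -0.029 (SE 0.12, 95% interval -0.29 to 0.24). Smad5, of the BMP branch, had FPKM of 8.69, 8.28 and 9.95 in mAC and 8.47, 10.5 and 9.38 in mAC_Mito, again with interleaved groups and a log2 fold change of 0.054 (SE 0.10, 95% interval -0.17 to 0.28). Smad3, of the TGF-beta branch, was at 7.58 to 10.8 FPKM and Smad2 at 5.75 to 6.40 FPKM. Smad1 was at 3.54 to 4.19 FPKM. Smad9, the third BMP-branch SMAD, was the scarcest. Its FPKM were 1.24, 1.15 and 1.05 in mAC and 1.10, 1.76 and 1.43 in mAC_Mito, highest in mAC_Mito 2 and 3 with mAC_Mito 1 inside the mAC range, and its log2 fold change was 0.28 (SE 0.18, 95% interval -0.12 to 0.69). Without mAC_Mito 2 the Smad9 value was 0.14 and without mAC_Mito 1 it was 0.41.

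Among the 7 intracellular inhibitors, 4 were above 0 and 3 below, with a median log2 fold change of 0.029. Smad7 (chr18:75367529-75395935), an inhibitory SMAD that is itself induced by TGF-beta and blocks its receptor, had the smallest unadjusted p of the 48 genes. Its FPKM were 2.37, 2.39 and 2.57 in mAC and 2.64, 3.48 and 3.51 in mAC_Mito. Every mAC_Mito library lay above every mAC library, but mAC_Mito 1 by less than 0.1 FPKM. The log2 fold change was 0.37 (SE 0.12, 95% interval 0.090 to 0.65) and the adjusted p of edgeR's quasi-likelihood test was 0.99992. Smad6, the inhibitory SMAD of the BMP branch, was at 10.1 to 13.1 FPKM and had a log2 fold change of 0.029. The ratio of Smad6 to Smad7 in FPKM was 4.27 to 5.50 in mAC and 3.60 to 4.26 in mAC_Mito.

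Ski, a nuclear repressor of SMAD transcription, had FPKM of 25.1, 21.1 and 19.5 in mAC and 21.2, 24.2 and 25.6 in mAC_Mito, with mAC 1 and mAC_Mito 3 highest and a log2 fold change of 0.080 (SE 0.14, 95% interval -0.22 to 0.38). Pmepa1, a TGF-beta target that keeps receptor SMADs from being phosphorylated, had FPKM of 24.3, 18.9 and 16.9 in mAC and 19.2, 19.6 and 18.7 in mAC_Mito. Here mAC 1 stood above the other 5 libraries, which lay within 3 FPKM of each other, and the log2 fold change was -0.10 (SE 0.16, 95% interval -0.45 to 0.26). Smurf2, a ubiquitin ligase that marks receptors and SMADs for degradation, was at 16.2 to 18.0 FPKM, and its relative Smurf1 at 4.86 to 6.14 FPKM. Skil, the SKI relative also called SnoN, was at 2.72 to 3.56 FPKM. For these 3 genes the groups overlapped.

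Of the 5 secreted antagonists, 2 were above 0 and 3 below in log2 fold change, with a median of -0.0029. Grem1 (chr2:113746164-113758646) had FPKM of 62.1, 62.5 and 64.7 in mAC and 59.4, 68.3 and 64.2 in mAC_Mito. The groups overlapped and the log2 fold change was -0.0029 (SE 0.088, 95% interval -0.20 to 0.19). Its FPKM were 1.99 to 2.54 times the sum of the 5 BMPs, ligands of the kind it binds. Chrdl1 (chrX:143285674-143394262), a chordin-like BMP antagonist, was the 1 gene with an unadjusted p under 0.05 that was lower in mAC_Mito. Its FPKM were 12.7, 11.5 and 11.2 in mAC and 10.8, 9.37 and 9.32 in mAC_Mito. On FPKM all 3 mAC_Mito libraries lay below the mAC libraries, whereas on TMM-scaled CPM the groups overlapped. In log2 fold change the gene stood at -0.29 (SE 0.13, 95% interval -0.57 to -0.0035), and it was -0.18 without mAC 1. Fst (follistatin), which binds activin, was at 8.31 to 11.4 FPKM, 0.959 to 1.28 times the FPKM of Inhba. Nog (noggin) was at 2.35 to 3.49 FPKM. Chrd (chordin) was at 0.367 to 0.785 FPKM, and it shares exon positions with Thpo on the opposite strand (24 to 42 counts against 163 to 335), so part of its value is uncertain.

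Among the 5 target genes 2 were above 0 and 3 below in log2 fold change, with a median of -0.0037. Tgfbi (chr13:56609523-56639562, plus strand), which encodes a TGF-beta-induced adhesion protein of the matrix, stood apart from the ID genes. Its FPKM were 38.2, 37.0 and 34.6 in mAC and 39.7, 50.7 and 51.0 in mAC_Mito. Every mAC_Mito library lay above every mAC library, with mAC_Mito 1 close to mAC 1 and the other two well above. The means were 36.6 ± 1.88 in mAC and 47.1 ± 6.42 in mAC_Mito (SD, n = 3). Tgfbi had a log2 fold change of 0.34 (SE 0.11, 95% interval 0.078 to 0.59) and the adjusted p of edgeR's quasi-likelihood test was 0.99992. With the trend over gene length removed the log2 fold change was 0.34. The stretch just before the annotated first exon of Tgfbi, from the same RefSeq table and marked in the same way, held GTCTG 2 times and GGCGCC once within 187 bases.
Tgfbi, chr13:56609336-56609522, + strand: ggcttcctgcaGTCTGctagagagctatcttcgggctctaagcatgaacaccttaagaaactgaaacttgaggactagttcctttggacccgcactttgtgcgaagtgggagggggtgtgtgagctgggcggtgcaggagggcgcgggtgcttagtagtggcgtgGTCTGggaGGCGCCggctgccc

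The ID genes encode inhibitors of helix-loop-helix factors and are textbook BMP targets. Id3 (chr4:136143497-136145392) had FPKM of 72.1, 112 and 119 in mAC and 92.3, 109 and 103 in mAC_Mito. Id1 (chr2:152736251-152737410) had FPKM of 60.2, 84.9 and 83.9 in mAC and 74.0, 76.4 and 76.4 in mAC_Mito. For both, mAC 1 was the lowest of the 6 libraries while the mAC_Mito values lay inside the mAC range. The log2 fold change was -0.0037 (SE 0.14, 95% interval -0.33 to 0.32) for Id3 and -0.027 (SE 0.11, 95% interval -0.28 to 0.23) for Id1. Id4, at 4.69 to 6.05 FPKM, was also lowest in mAC 1, and Id2, at 19.9 to 27.3 FPKM, was lowest in mAC_Mito 2. Summed over the 4 genes, FPKM were 158 in mAC 1 and 199 to 233 in the other 5 libraries, with Id1 and Id3 giving 83.7% to 87.7% of the sum. The library mAC 1 also had the highest mitochondrial share of counts, 7.38%; the part of this in the ID values was not tested. It was the highest library for 17 of the 48 genes, 35.4% beside 21.7% of all genes tested, among them Pmepa1, Tgfb1 and Bmp7.

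Of 87 further pathway genes listed, 84 were in the table (Nodal, Tdgf1 and Cer1 were not analysed here) and 77 were tested. With edgeR's quasi-likelihood test, 0 of the 77 were called, and 39 were above 0 and 38 below in log2 fold change. On the same test 3 had an unadjusted p under 0.05, which is 3.9% beside 3.19% of all genes tested. Of these 3, 2 were higher in mAC_Mito (Lrp1 and Itgb8) and 1 was lower. DESeq2 and limma also called 0. Of the whole list of 13 further TGF-beta targets, 5 were above 0, with a median of -0.011, and Acta2 (smooth muscle actin), the most abundant, was at 525 to 609 FPKM.

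In the list for latency, storage and activation of TGF-beta, 10 of 13 genes were above 0 in log2 fold change, with a median of 0.21. Thbs1 (thrombospondin-1), an activator of latent TGF-beta, was its most abundant gene and had FPKM of 804, 696 and 802 in mAC and 663, 1111 and 1050.2 in mAC_Mito, with mAC_Mito 2 and 3 highest and mAC_Mito 1 lowest. Fbn2, which encodes fibrillin-2, had the smallest unadjusted p of this list among genes of at least 1 FPKM, and its FPKM were 3.54, 3.02 and 4.10 in mAC and 2.81, 7.00 and 5.62 in mAC_Mito. Again mAC_Mito 2 and 3 were highest and mAC_Mito 1 lowest, and its log2 fold change was 0.50. For 2 genes of this list, named after their values were seen, every mAC_Mito library lay above every mAC library on TMM-scaled CPM: Furin, the protease that cuts the TGF-beta propeptide, at 6.88 to 9.67 FPKM with a log2 fold change of 0.21, and Itgb8, an integrin subunit that releases latent TGF-beta, at 0.261 to 0.448 FPKM with a log2 fold change of 0.41.

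The remaining lists had medians of log2 fold change between -0.030 and 0.11. Of the other ligands 7 of 12 tested were above 0, with Bmp1, a protease that processes procollagens, at 8.71 to 10.8 FPKM, and Gdf5, the joint-forming ligand, at 1.38 to 2.25 FPKM and a log2 fold change of -0.31. Of the other receptors 6 of 8 were above 0, led by Lrp1. Of the other secreted antagonists 3 of 8 were above 0. The follistatin-like glycoprotein gene Fstl1 was the most abundant of these at 126 to 171 FPKM, and Dand5, of the DAN family of antagonists, had a log2 fold change of -0.24. Among SMAD anchors and cofactors 3 of 14 were above 0, with a median of -0.030; the deubiquitinase Usp4 was the most abundant at 12.3 to 14.9 FPKM, and Usp15, another deubiquitinase, had the smallest unadjusted p, with a log2 fold change of -0.081. Of the other BMP targets 5 of 9 were above 0: Atoh8 was at 18.0 to 28.2 FPKM, and Runx2, the master regulator of hypertrophy and bone, had FPKM of 2.87, 1.996 and 1.96 in mAC and 2.13, 3.31 and 3.27 in mAC_Mito. As for the binding proteins, mAC_Mito 2 and 3 held its 2 highest values, here with mAC 1 close behind.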

How the data were processed

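Poly(A) RNA from 6 libraries of mouse chondrocytes (3 mAC_Mito, 3 mAC) was sequenced. The deposited table gives, per the file headers, raw counts per gene and FPKM values computed by the authors for each library. Bowtie 0.12.2, StringTie 1.3.0, HISAT2 2.0 and the build mm8 are listed in the submitters' processing notes without their roles, and the counting rule and its strandedness were not given in the sources used here. The table's coordinates are those of GRCm38: of 26902 gene identifiers shared with GENCODE M21, 99.6% shared at least 1 end, and printed positions are the table's own.

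Differences in the deposited counts were tested in R 4.3.3 with edgeR 4.0.16 (quasi-likelihood), with filterByExpr (minimum count 10, minimum total 15), TMM scaling and Benjamini-Hochberg adjustment over 17645 genes, threshold 0.05, two-sided. Standard errors and 95% intervals are those implied by the F statistic. Log2 CPM used a prior count of 2. The test script was checked on simulated data. Every 2 libraries differed by more than sampling noise (chi-square per degree of freedom 23.6 or more).

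The genes and lists were chosen with earlier results of these data known. Given with every library are the 2 most abundant genes of each role, the 6 with the smallest unadjusted p and the 4 with the widest range among those of at least 1 FPKM. Of each further pathway list, the most abundant gene and the one with the smallest p among those of at least 1 FPKM are named. Alternatives were DESeq2 1.42.0, limma 3.58.1 on log2(FPKM + 1) and log2(FPKM + 0.1), RLE scaling, library totals alone, no filter, a filter at FPKM 5 in 3 libraries, a replicate block, leaving out each library, and an offset for gene length. Promoter sequences are RefSeq's for GRCm38.p6. A few results on genes outside the 48 are not reported here.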

Additional observations from a re-analysis of the deposited data

How the results depend on the processing

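None of the 48 genes and none of the further pathway genes was called by edgeR's quasi-likelihood test under any alternative run, by DESeq2 or by limma. Over the whole table, 1 gene higher and 1 lower became 3 and 2 with DESeq2, and 0 and 0 without a filter, with the FPKM filter and with limma on log2(FPKM + 1); limma on log2(FPKM + 0.1) gave 1 and 0. Leaving out 1 library gave 0 to 3 higher and 0 to 1 lower. The median log2 fold change of the 48 was 0.018 (without mAC 3) to 0.118 (without mAC 1). Genes whose groups lie apart, 4 higher and 0 lower, became 2 higher with the FPKM filter, under which 31 were tested, and 1 lower with library totals alone and with both limma settings. Without 1 library these counts were 4 to 16 and 1 to 3, with no matching shares of all genes tested computed. The higher count was 14 without mAC 1 and 16 without mAC_Mito 1. The lower count was 2 without mAC 1, 3 without mAC 3 and 3 without mAC_Mito 1. Signs turned for genes with values near 0. Grem1 was at 0.0037 with library totals alone, 0.0024 without a filter, 0.0026 with the FPKM filter, 0.018 with limma at either pseudocount, and -0.028 to 0.033 without 1 library. Id3 was at 0.00026 without a filter, 0.0047 with the FPKM filter, 0.037 and 0.038 with limma, 0.016 with the length trend removed (an alternative chosen after seeing the data), and -0.16 to 0.096 without 1 library. Id1 was at 0.0026 and 0.0028 with limma and at -0.13 to 0.045 without 1 library. On leaving out 1 library the log2 fold change spanned -0.020 to 0.14 for Bmp5, -0.047 to 0.60 for Bmp7, -0.10 to 0.0029 for Bmpr1a, -0.13 to 0.070 for Smad4, -0.014 to 0.096 for Smad5, -0.030 to 0.24 for Ski and -0.23 to 0.12 for Pmepa1. The cause of these turns was not tested. Tgfb3, Tgfbr2, Smad7, Smad9, Chrdl1, Tgfbi and the 4 latent TGF-beta binding proteins kept their sign in every alternative in which they were tested. A replicate block left 0 of the 48 called and put Id3 at 0.017. Libraries of the same number correlated at 0.31, -0.20 and 0.033 in their deviations from the group means. Libraries of different numbers were not set beside them, so these values cannot decide whether the numbers pair the libraries. With 3 libraries a group, the intervals leave differences of either sign for 43 of the 48 genes.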
